A study of Mus musculus with 2 samples.

Results

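The cells described here, called MHC class II C1q macrophages after their transcripts, carried RNA of both MHC class II and the complement component C1q. They were selected on their measured values in single-cell RNA profiles of mouse central nervous system cells: the summed counts of H2-Aa, H2-Ab1 and H2-Eb1 had to reach 3000 CPM (counts scaled to a cell's or population's total of 1000000), those of C1qa, C1qb and C1qc 2000 CPM, and those of S100a8 and S100a9 to stay under 20000 CPM. These thresholds were met by 225 of 2985 kept cells, 81 of 1234 in the heterozygous library and 144 of 1751 in the wild-type library. A kept cell had at least 500 detected genes, under 10% mitochondrial UMIs (unique molecular identifiers, each counting 1 captured transcript) and a barcode that was not listed in both libraries.

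Both libraries were labelled as microglia-like cells of the central nervous system that arose from transplanted hematopoietic stem and progenitor cells. One was labelled Cx3cr1-/+ (Het) and the other Cx3cr1+/+ (WT), with 1 library each. The labels give the same protocol for both: lineage-negative cells of Cx3cr1-/+ mice, sorted by GFP into positive and negative fractions, were given by vein to CD45.1 recipients that had received 4 doses of 25 mg/kg busulfan, a myeloablative drug. Which donors gave the wild-type library, the number, age and sex of the animals and the time after transplantation are not given in the sources used here. With 1 library per genotype no difference below has a replicate check, no p-value is given, and every interval is an exact 95% interval that covers counting error only. Genotype cannot be told apart from any other difference between the libraries.

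MHC class II molecules, paired alpha and beta chains, present peptides from the endosome to CD4 T cells. The invariant chain Cd74 guards their groove, H2-DM loads the peptide and H2-O restrains that loading, and the coactivator Ciita switches the whole set on through the X and Y boxes of their promoters. C1q is the recognition subunit of the classical complement pathway and in brain is made mainly by microglia and macrophages. Resident microglia in the healthy brain carry little class II, which is instead typical of perivascular, meningeal and choroid plexus macrophages, of activated or blood-derived macrophages, and of dendritic cells.

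The promoters of 3 of these genes are shown because H2-Aa and H2-Eb1 chose the cells and H2-DMb1, outside the choice, was among the genes highest in them. The sequences are RefSeq windows of 300 bases on GRCm38.p6, from 250 bases before to 50 bases after the gene's start, each read along the gene's strand. On the same build H2-Aa spans chr17:34282744-34287823 (minus strand), H2-Ab1 chr17:34257689-34269419, H2-Eb1 chr17:34305867-34316674, C1qa chr4:136895917-136898803 and Cx3cr1 chr9:119901616-120069879, all protein-coding genes of GENCODE M21. Capitals mark the letters GATTGG, the core of the Y box, and AGNNACNNA, a part of the X box, searched on both strands.
H2-Aa (chr17:34287774-34288073, minus strand): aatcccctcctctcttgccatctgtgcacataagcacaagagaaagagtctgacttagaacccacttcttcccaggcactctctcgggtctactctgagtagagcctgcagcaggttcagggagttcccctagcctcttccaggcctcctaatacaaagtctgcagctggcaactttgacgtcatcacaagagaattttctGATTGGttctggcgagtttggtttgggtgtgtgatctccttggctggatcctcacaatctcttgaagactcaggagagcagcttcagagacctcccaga
H2-Eb1 (chr17:34305617-34305916, plus strand): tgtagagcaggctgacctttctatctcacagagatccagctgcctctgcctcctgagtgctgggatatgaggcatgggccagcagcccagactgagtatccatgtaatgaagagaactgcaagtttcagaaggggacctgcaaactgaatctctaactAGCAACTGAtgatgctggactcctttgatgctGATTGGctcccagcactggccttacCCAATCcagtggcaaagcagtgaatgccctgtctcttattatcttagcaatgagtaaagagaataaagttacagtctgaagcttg
H2-DMb1 (chr17:34152941-34153240, plus strand): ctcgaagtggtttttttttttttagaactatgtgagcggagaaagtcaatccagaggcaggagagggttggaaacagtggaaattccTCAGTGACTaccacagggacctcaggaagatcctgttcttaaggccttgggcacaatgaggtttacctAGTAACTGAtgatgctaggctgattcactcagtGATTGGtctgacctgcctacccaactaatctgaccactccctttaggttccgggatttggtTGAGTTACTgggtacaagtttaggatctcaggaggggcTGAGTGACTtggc
The Y box core began 49 bases before the start in H2-Aa, 60 bases before it in H2-Eb1 and 62 bases before it in H2-DMb1. X box letters lay upstream of it in H2-Eb1, 92 bases before the start, and in H2-DMb1, 95 bases before the start. In H2-DMb1 they also lay 163 and 1 bases before the start and 37 bases after it. The H2-Aa window had no match to these exact letters. Since they cover only a part of the X box, this does not show that H2-Aa lacks one. H2-Eb1 had another Y box core on the other strand, 35 bases before the start. The 23 genes looked for were H2-Aa, H2-Ab1, H2-Eb1 and a list of 20 that includes receptors outside class II, such as Cd80, Cd274 and Slamf7. Of the 23, 16 had a usable window, with 18 windows in all. The Y box core was in 10 of the 18 windows, and in 8 of the 9 windows of H2 genes, against 16.1% of the 32851 promoter windows in the table. The X box letters were in 9 of the 18, against 46.2% of all windows.

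**Figure D1:**
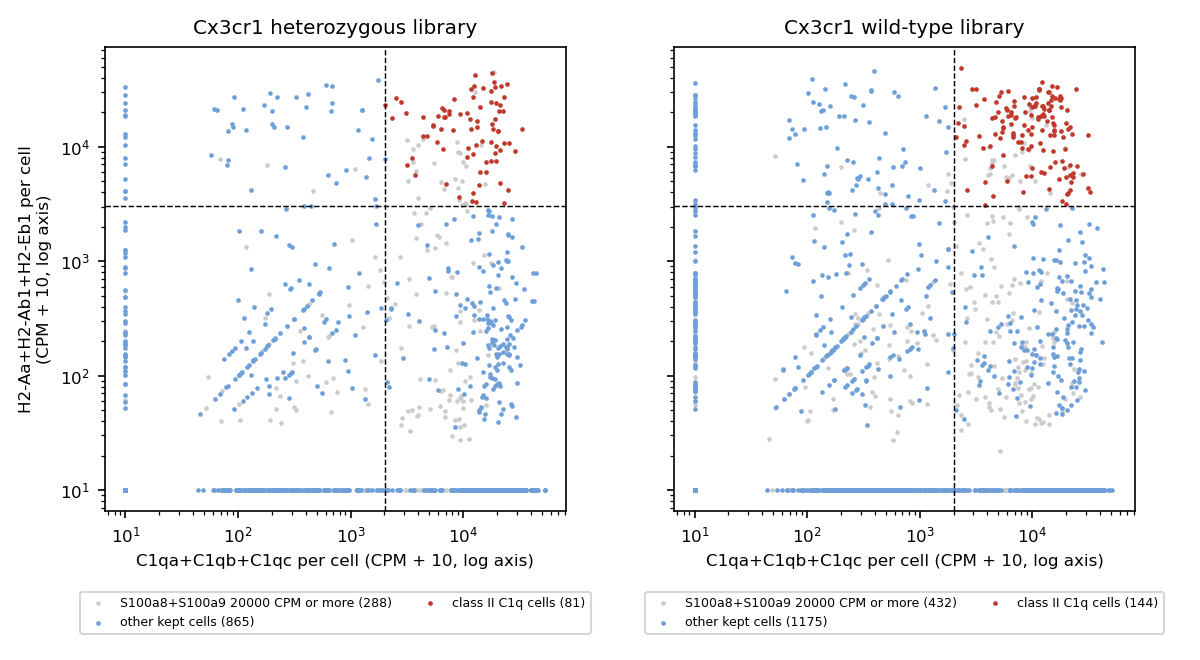
Summed C1qa, C1qb and C1qc (horizontal, CPM + 10, log axis) against summed H2-Aa, H2-Ab1 and H2-Eb1 (vertical, CPM + 10, log axis) in every kept cell of each library, with the selection thresholds as dashed lines. The 81 and 144 selected cells, in red, fill the upper right, and cells with class II and C1q below the thresholds lie close beneath and beside them.

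The sums of class II and of C1q that chose the cells were similar in both libraries. Class II ran from 3191 to 44202 CPM per cell in the heterozygous library, with a median of 15013, and from 3113 to 48649 CPM in the wild-type library, with a median of 15061. C1q ran from 2000 to 33406 CPM, median 13009, and from 2078 to 32729 CPM, median 11238. The 5 selected cells nearest the class II threshold had 3191 to 3902 CPM in the heterozygous library and 3113 to 3841 CPM in the wild-type library, and the 5 cells just under it 2457 to 2796 CPM and 2119 to 2905 CPM. At the C1q threshold the nearest 5 selected cells had 2000 to 3102 CPM and 2078 to 2446 CPM, and the nearest 5 outside 1548 to 1994 CPM and 1478 to 1780 CPM. The cells nearest the third threshold had 4896 to 19378 CPM of S100a8 and S100a9 inside and 20552 to 35390 CPM outside in the heterozygous library, and 3786 to 19937 CPM inside and 21197 to 25148 CPM outside in the wild-type library.

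The selected cells made up 6.56% (interval 5.25 to 8.09) of the heterozygous library and 8.22% (6.98 to 9.61) of the wild-type library, and the 2 intervals overlap. Their median depth was 13297 UMIs in the heterozygous and 10273 UMIs in the wild-type library, and 7 and 11 of them had fewer than 2000 UMIs. The 2 libraries held 1837 and 2359 barcodes with 17828344 and 22062823 UMIs, and 339 barcodes were listed in both; no doublet caller was run. A pair of neighbouring populations served for comparison: C1q cells low in class II (424 and 450 cells, median 6296 and 5198 UMIs), which passed the C1q threshold and not the class II one, and class II cells low in C1q (58 and 100 cells, median 11930 and 10243 UMIs). Since the thresholds define all 3, their differences are descriptions. Counts from the 3' end of transcripts do not allow levels of different genes to be compared.

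Macrophage identity genes were present, as the name of the cells has it. Csf1r, the receptor for the macrophage growth factor CSF1, had 817 CPM in the heterozygous library and 647 CPM in the other, over the summed UMIs of the selected cells. That scale is used from here on, and in each pair of values the heterozygous library comes first. Adgre1, which encodes F4/80, stood at 178 and 128 CPM, and Mertk, a receptor for dying cells, at 96.2 and 68.4 CPM. The 15 genes of the conventional dendritic cell list summed to 240 and 373 CPM, against 220 and 270.1 CPM in the C1q cells low in class II and 1455 and 887 CPM in the class II cells low in C1q, both described below, and 4 and 2 of them were at 0. Within that list Xcr1 had no UMI in either library, Clec9a stood at 0 and 2.24 CPM and Flt3 at 0 and 3.92 CPM, while Cd209a stood at 21.5 and 109 CPM. Of the 5 genes of the list measured against the C1q cells low in class II, 2 were higher and 2 lower; the part of dendritic cells in these levels was not tested. The markers fixed for B cells summed to 131 and 112 CPM with 7 of 10 genes at 0 in the heterozygous library, those for T cells to 27.5 and 18.5 CPM, and those for NK cells to 2.58 and 4.48 CPM.

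Set against the C1q cells low in class II, the selected cells were higher in much of the rest of the presentation machinery and lower in homeostatic microglia genes, while lists of monocyte and border macrophage genes held members of both directions or lower ones. A gene is called higher or lower here when its CPM differed by 1.5-fold or more in the same direction in both libraries, among genes with at least 50 UMIs and a mean of 20 CPM in each comparison. By that rule 170 of 5241 genes were higher (3.24%) and 529 lower (10.1%); over all genes the median log2 ratio was -0.13. With trimmed mean scaling in place of CPM the counts were 279 higher and 349 lower, a shift of 0.12 in the log2 ratio of each gene, so the size of the excess of lower genes depended on the scaling. The cells also had more UMIs each than the C1q cells low in class II, and with only cells of at least 2000 UMIs the counts were 170 higher and 528 lower; the part of depth beyond that was not tested.

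The list of class II machinery outside the selection also holds costimulatory and other surface receptors, such as Cd86, Cd274 and Slamf7. Of its 13 measured genes 7 were higher, Slamf7 among them, and 1 was lower. The median log2 ratio was 1.28. Cd74 reached 24304 and 23755 CPM, against 614 and 583 CPM in the C1q cells low in class II. Ciita was at 49.8 and 58.9 CPM against 1.37 and 1.66 CPM. H2-DMb1 and H2-DMa, the chains of the peptide editor, were at 617 and 673 CPM against 77.7 and 83.7 CPM, and at 563 and 588 CPM against 233 and 222 CPM. Ifi30, a lysosomal thiol reductase that unfolds antigens, was at 927 and 1054 CPM against 415 and 397 CPM. The lower gene was Lgmn, a lysosomal protease, at 967 and 797 CPM against 1788 and 1599 CPM. H2-Aa, H2-Eb1 and H2-DMb1, whose promoters are printed above, were thus high together, H2-Aa and H2-Eb1 by selection. The costimulatory gene Cd86 stood at 150 and 105 CPM against 140 and 128 CPM and did not pass 1.5-fold.

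Of the classical monocyte list 3 of 9 measured genes were higher and 3 lower (median of the log2 ratios -0.68), of the patrolling monocyte list 7 of 10 were lower and none higher, and of the border macrophage list 1 of 10 was higher and 3 lower. Ccr2 belongs to the first of these lists and Mgl2 to the last. Mgl2, a galactose-binding lectin of macrophages and a subset of dendritic cells, had 334 and 462 CPM in the selected cells against 25.0 and 15.5 CPM in the C1q cells low in class II. With every cell thinned to 2000 UMIs, an Mgl2 UMI was present in 23 of 74 heterozygous cells, 31.1% (interval 20.8 to 42.9), and in 53 of 133 wild-type cells, 39.8% (31.5 to 48.7), against 3.504% and 2.25% of the C1q cells low in class II and none of 23 and 53 NK cells, which allows up to 13.04% and 5.66%; without thinning the shares were 54.3% and 54.2%. NK cells, which should lack the gene, had median depths of 7625 and 5040 UMIs. They were kept cells with Nkg7, Klre1, Ncr1, Klrb1c, Prf1 and Klra8 summing to 1000 CPM or more and S100a8 and S100a9 under 20000 CPM. Only cells past both other thresholds were left out of them, so they overlap the neighbouring populations. Class II reached 15834 CPM in a heterozygous NK cell, and C1q reached 11158 and 14614 CPM. Ccr2, the receptor that draws monocytes out of the marrow, was at 272 and 313 CPM against 42.8 and 78.7 CPM. Mmp12, a macrophage elastase, was at 133 and 242 CPM against 5.49 and 7.46 CPM. Retnla, a secreted protein of alternatively activated macrophages, was at 198 and 88.6 CPM against 3.57 and 0.276 CPM, but came from 5 and 8 cells. Ccl17, a chemokine for T cells, was at 38.7 and 80.7 CPM against 2.75 and 0.276 CPM, with 42.2% and 41.0% of its UMIs in a single cell of each library.

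All 15 measured genes of the homeostatic microglia list were lower than in the C1q cells low in class II, with a median log2 ratio of -1.74. Cx3cr1, the fractalkine receptor that the genotypes alter, was at 562 and 608 CPM against 1279 and 1456 CPM. P2ry12, a purinergic receptor of ramified microglia, was at 167 and 173 CPM against 509 and 694 CPM. The damage response list, made of genes that microglia switch on around lesions, had 11 lower and 3 higher of 21. Spp1, which encodes osteopontin, had 50.7 and 55.5 CPM against 2628 and 562 CPM, Apoe, the lipid carrier, at 11464 and 6775 CPM against 36381 and 15629 CPM, and Ctsd, a lysosomal protease, at 1317 and 983 CPM against 6011 and 4132 CPM. The 3 higher genes were Axl, Itgax and Lgals3. Lysosomal genes were lower in 7 of 21 and higher in none.

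Against the class II cells low in C1q, 334 of 4315 genes were higher (7.74%) and 258 lower (5.98%); the median log2 ratio was -0.03. Cd74 was at 24274 and 22827 CPM in that population, close to its level in the selected cells. Of 15 measured genes of the class II machinery, 2 were higher, Ctss and Lgmn, and 5 lower. H2-Oa and H2-Ob, the chains that restrain peptide loading, stood at 22.3 and 25.2 CPM against 78.5 and 81.1 CPM, and at 11.2 and 7.85 CPM against 75.6 and 61.7 CPM. Ciita was at 102 and 92.5 CPM in the class II cells low in C1q. That population was mixed: Cd79a, a chain of the B cell receptor, was at 156 and 52.0 CPM, Xcr1 at 79.9 and 49.3 CPM and Flt3 at 66.9 and 52.9 CPM.

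Macrophage and lysosomal genes were higher in the selected cells than in the class II cells low in C1q. Of the macrophage core list, 8 of 12 were higher and none lower; the median log2 ratio was 1.77. Of the lysosomal list, 11 of 19 were higher and none lower, with a median of 0.86. Neutrophil genes moved with them: 3 of 4 measured were higher, and the list, which includes S100a8 and S100a9, summed to 1612 and 1231 CPM against 708 and 767 CPM; the part of neutrophil RNA was not tested. Of the homeostatic microglia list, 10 of 11 were higher and none lower. Tmem119, a membrane protein of microglia, was at 228 and 197 CPM against 4.36 and 14.98 CPM. Ms4a7, which marks border and blood-derived macrophages, was at 502 and 215 CPM against 14.5 and 17.6 CPM, and Pf4, a chemokine of border macrophages, at 629 and 471 CPM against 21.8 and 44.9 CPM. Of the dendritic cell list, 5 of 8 measured genes were lower, among them Cd209a, a lectin of monocyte-derived dendritic cells, at 21.5 and 109 CPM against 241 and 248 CPM. The selected cells thus lay between the 2 populations for most microglial genes. They were above the class II cells low in C1q and below the C1q cells low in class II. Summed, the homeostatic microglia list was at 3983 and 3807 CPM in the selected cells. Class II cells low in C1q had 673 and 745 CPM, and C1q cells low in class II 11150 and 11931 CPM. Cells rich in S100a8 and S100a9, which the selection left out, had 3828 and 4181 CPM. NK cells, which overlap the neighbouring populations, had 680.5 and 2016 CPM. The part of RNA from other cells in these levels was not tested.

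**Figure D2:**
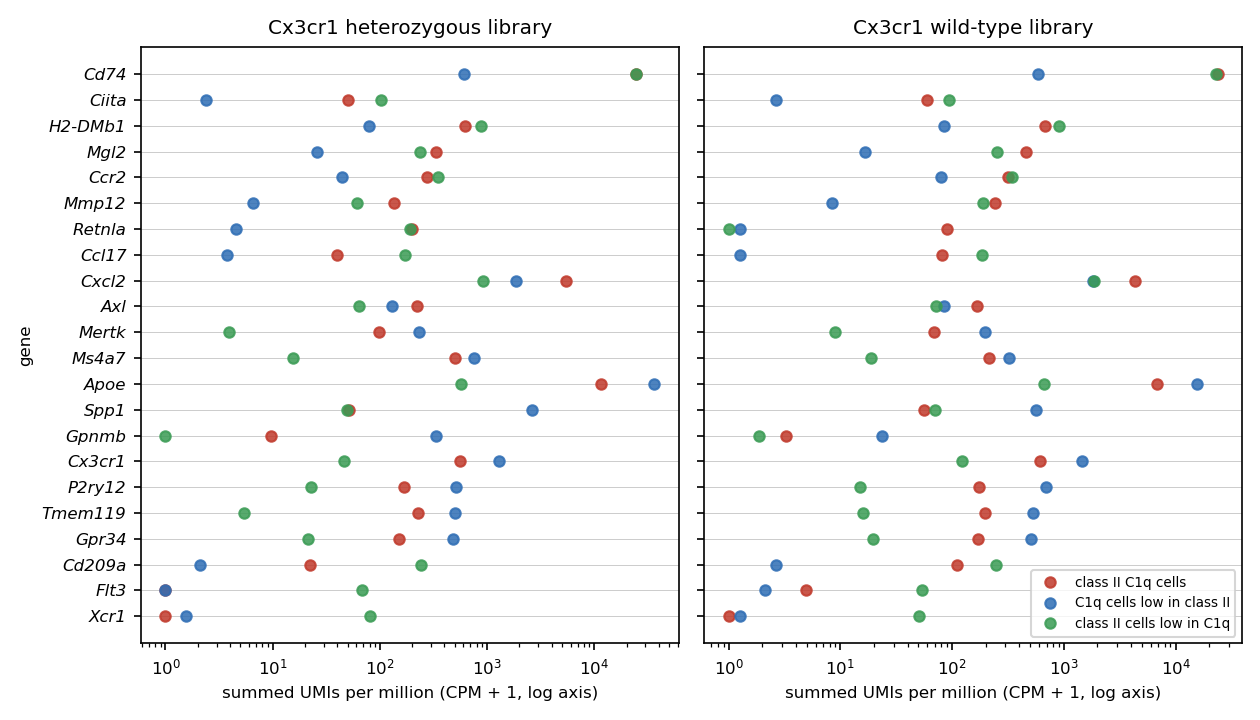
Level of 22 genes in the selected cells (red), C1q cells low in class II (blue) and class II cells low in C1q (green), in CPM + 1 on a log axis, with 1 point per population in each library. Cd74, Ciita and H2-DMb1 sit with the class II cells, Cx3cr1, P2ry12, Tmem119 and Gpr34 sit between the other two, and Cxcl2 and Axl are highest in the selected cells.

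Few genes were past 1.5-fold beyond both neighbours in both libraries. In a comparison added after the data were seen, 11 of 4229 genes were higher by that rule (0.26%) and 19 were lower (0.449%). Genes outside the range of both neighbours by less than 1.5-fold were not counted. Cxcl2, a neutrophil chemokine, had 5498 and 4325 CPM, against 1854 and 1840 CPM in the C1q cells low in class II and 910 and 1856 CPM in the class II cells low in C1q. Cxcl1, a related chemokine, was at 95.4 and 234 CPM against 54.1 and 54.4 CPM and 4.36 and 51.1 CPM. Axl, a receptor for phosphatidylserine-bound ligands, was at 222 and 166 CPM against 128 and 83.7 CPM and 62.5 and 71.4 CPM. Cd72, an inhibitory receptor, was at 147 and 86.9 CPM against 53.3 and 36.7 CPM and 32.0 and 44.9 CPM. The other 7 were Creb5, Scimp, Clec4a2, Carhsp1, Haus8, Mt1 and Pid1. The lower ones included Plac8 at 73.0 and 300 CPM, Itgal at 55.0 and 114 CPM and Irf8, a transcription factor of monocytes and microglia, at 143 CPM in both libraries against 272 and 244 CPM and 471 and 365 CPM.

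Between the libraries, the class II genes and C1qa, which chose the cells, and Cd74, which did not, stayed within 1.5-fold. Cd74 had a log2 ratio, heterozygous over wild type, of 0.03 (interval 0.01 to 0.05). H2-Aa was at 6233 and 6362 CPM, H2-Ab1 at 4080 and 4030 CPM and H2-Eb1 at 5791 and 5881 CPM, while C1qa was at 4461 and 3659 CPM. Cx3cr1, the gene the genotypes alter, was at 562 and 608 CPM, and its log2 ratio was -0.11 (-0.26 to 0.03). Per cell its median was 271 CPM in the heterozygous library, from 0 to 2822 CPM, and 431 CPM in the wild-type library, from 0 to 2777 CPM, and the 2 ranges overlap almost wholly. In the C1q cells low in class II its log2 ratio was -0.19 (-0.24 to -0.13). The 3' counts do not tell a transcript of the intact allele from one of an altered allele that still makes the counted part.

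Of 5255 genes measured in the selected cells of both libraries, 227 were at least 1.5-fold higher in the heterozygous library (4.32%) and 214 lower (4.07%). Most lists held few of them. Of the class II machinery list 0 of 15 were higher and 1 was lower, the surface receptor Slamf7. Of the homeostatic microglia list 1 of 13 was higher (P2ry13), and none of 21 lysosomal or 12 immediate early genes passed 1.5-fold. Of the border macrophage list, whose genes mark macrophages of the meninges and vessels, 10 of 16 passed the filter on low values, and of these 4 were higher and none lower. Lyve1, a hyaluronan receptor of border macrophages that did not pass it, had 0 UMIs in the heterozygous and 23 in the wild-type cells, so its direction was the opposite. Of the patrolling monocyte list 6 of 10 were lower and none higher. The median log2 ratio was -0.72 against -0.01 over all genes. Summed, this list was at 597 and 886 CPM in the selected cells. The direction was the same in both neighbours. C1q cells low in class II had 777 and 1673 CPM, and class II cells low in C1q 882 and 1389 CPM. A cluster of all kept cells led by Cd300e, Ace, Fabp4 and Treml4 held 187 heterozygous and 450 wild-type cells. Of these, 0 heterozygous and 6 wild-type cells were selected ones. Within the largest cluster of selected cells, described below, Treml4 had a log2 ratio of 0.85 (-0.22 to 1.96), Ace of -0.84 (-1.90 to 0.14) and Pglyrp1 of 0.19.

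Apoe reached 11464 and 6775 CPM, with a log2 ratio of 0.76 (0.72 to 0.79). Its median per cell was 10097 CPM against 3725 CPM, with ranges of 80.2 to 56698 CPM and 0 to 75933 CPM that overlap. The same direction was seen in the C1q cells low in class II, at a log2 ratio of 1.22 (1.20 to 1.23), and in the class II cells low in C1q it was -0.22. Ms4a7 reached 502 and 215 CPM, with a log2 ratio of 1.22 (1.04 to 1.41). With every cell thinned to 2000 UMIs, 44.6% (interval 33.0 to 56.6) and 26.3% (19.1 to 34.6) of cells had an Ms4a7 UMI, against 0 of 23 and 1 of 53 NK cells, and without thinning 58.0% and 48.6%. In the C1q cells low in class II Ms4a7 differed as much, at 746 and 320 CPM. Stab1, a scavenger receptor of border macrophages, was at 241 and 117 CPM, and Cbr2, a carbonyl reductase of the same cells, at 62.7 and 19.6 CPM. Cbr2 had no UMI in 65 of 81 heterozygous and 134 of 144 wild-type cells, and up to 30 and 13 UMIs in 1 cell. Its log2 ratio over the C1q cells low in class II was 0.92 and -1.93. In those cells Cbr2 was thus lower in the heterozygous library, the opposite direction.

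Gdf15, a stress-induced cytokine, reached 195 and 31.4 CPM, with a log2 ratio of 2.64 (2.21 to 3.08). In the C1q cells low in class II the ratio of Gdf15 had the other sign, -0.35 (-0.57 to -0.13). Gdf15 UMIs came from 16 cells of each library, with 23.8% and 32.1% in the highest cell. Vcam1, an adhesion molecule, was at 85.1 and 16.3 CPM, and Col14a1, a collagen, at 64.4 and 22.98 CPM. Some large ratios came from few cells: Ccl8, a monocyte chemokine, at 85.9 and 4.48 CPM, had 69% of its heterozygous UMIs in 1 of 3 cells, and Fn1, fibronectin, at 147 and 58.9 CPM, had 52.6% in 1 cell. Ccn1, a matrix protein, had 60 UMIs against 1, a log2 ratio of 6.52 (3.99 to 11.85), and 46.7% of the 60 were in 1 cell. Without the highest cell of each library the log2 ratio of Fn1 was 0.58 in place of 1.32, under the 1.5-fold line.

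Among the genes lower in the heterozygous library, Plac8, a gene of circulating monocytes, had 73.0 and 300 CPM, and its log2 ratio was -2.04 (-2.39 to -1.71). Among the selected cells of the largest cluster described below the ratio of Plac8 was -0.18 (-0.68 to 0.31), under the 1.5-fold line. Cd209a had 21.5 and 109 CPM, with a log2 ratio of -2.35 (-3.01 to -1.74), from 4 and 17 cells. Mmp12 was at 133 and 242 CPM and Clec4b1, a lectin of monocyte-derived cells, at 60.1 and 131 CPM. Ptgs2, the inducible cyclooxygenase, was at 24.1 and 63.9 CPM. Ccl24, an eosinophil chemokine, was at 3.44 and 66.1 CPM, but 94.9% of its wild-type UMIs were in 1 cell. The cell cycle genes Mki67, Birc5 and Tyms were lower and the other 9 of that list did not pass 1.5-fold. Without the 10% of cells with most UMIs in each library Mki67 had a log2 ratio of 0.08, Birc5 of 1.24 and Tyms of 0.00, none of them in the former direction.

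**Figure D3:**
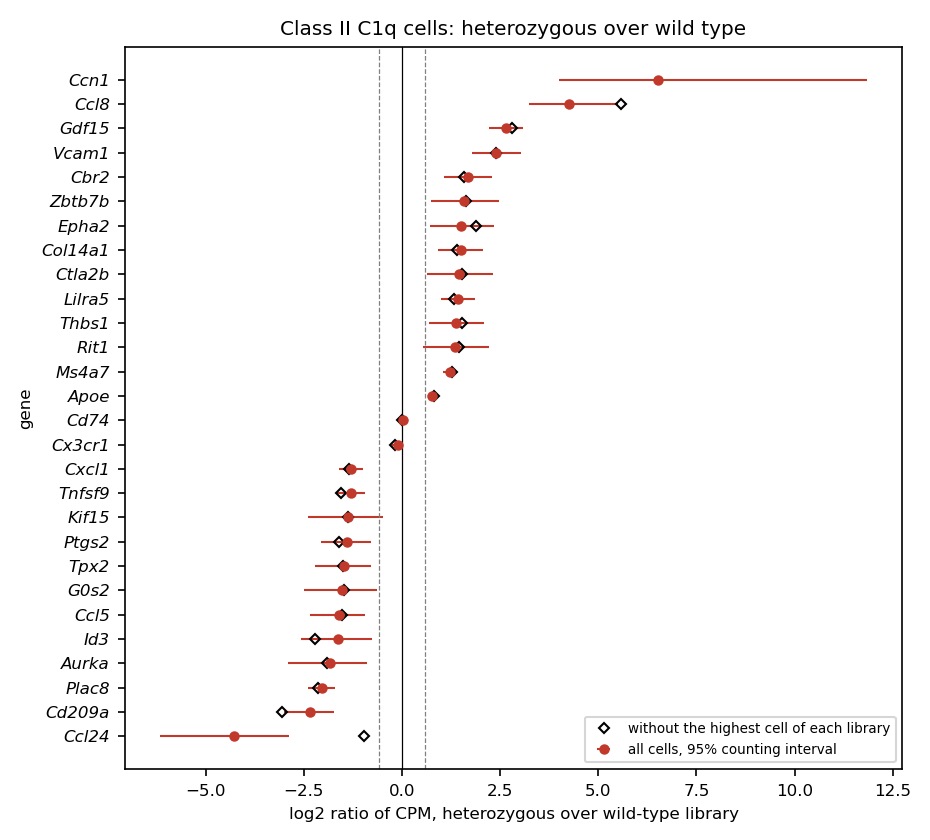
Log2 ratio of CPM in the selected cells, heterozygous over wild-type library, for the 12 genes most above and the 12 most below, with Ms4a7, Apoe, Cd74 and Cx3cr1 between them. Red points use all cells with 95% counting intervals, open diamonds leave out the highest cell of each library, dashed lines mark 1.5-fold; Cd74 and Cx3cr1 lie on 0, and Ccl24 is the gene that moves most, from -4.27 to -0.97.

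Xist, the RNA of the silent X chromosome, and 4 Y-linked genes (Ddx3y, Eif2s3y, Kdm5d and Uty) divided the wild-type library. Of its 144 selected cells, 16 had UMIs of Xist only, 67 of Y-linked genes only, 14 of both and 47 of neither. Of the 81 heterozygous cells, 70 had Xist only, 1 Y-linked genes only and 10 neither. Among wild-type cells with 1 kind of mark, 19.3% (interval 11.4 to 29.4) of the selected cells were marked by Xist, against 54.5% (47.3 to 61.5) of the C1q cells low in class II and 0% (0 to 5.601) of the class II cells low in C1q. These shares moved with depth: with every cell thinned to 2000 UMIs they were 39.0%, 69.1% and 5%, in the same order. Cells with both marks were 9.72% of the selected cells, 8.89% of the C1q cells low in class II, 2% of the class II cells low in C1q and 20.8% of the cells rich in S100a8 and S100a9. With thinning to 2000 UMIs these shares were 0% (interval 0 to 2.735), 1.41%, 0% and 1.45%, so the spread between them was seen only without thinning. The labels give no sex for donors or recipients, so the origin of either kind of cell was not tested.

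The marks went with different gene levels inside the wild-type selected cells. Cx3cr1 was at 1499 CPM in the 16 Xist-only cells and 385 CPM in the 67 Y-only cells, a log2 ratio of 1.96 (1.72 to 2.20). P2ry12 was at 416 and 54.9 CPM, Gpr34, a lysophospholipid receptor of microglia, at 545 and 54.01 CPM, and Siglech, a sialic acid receptor of microglia, at 198 and 14.9 CPM. The chemokine genes Ccl12 and Ccl7 were also higher in Xist-only cells, at 2146 and 396 CPM and at 1560 and 319 CPM. Ccl7 had 229 UMIs in the Xist-only and 343 in the Y-only cells. It was at 0 in 105 of the 144 wild-type cells, and 1 cell, whose mark is not given here, held 162 UMIs. The Y-only cells were higher in Mmp12, at 20.4 and 352 CPM, in S100a4, a calcium-binding protein of monocytes, at 47.7 and 574 CPM, and in the cytokine Il1b, at 164 and 742 CPM. Cd74 was close, at 22431 and 25742 CPM, as were H2-DMb1, at 654 and 713 CPM, and Cxcl2, at 4979 and 5049 CPM. Set against the 67 Y-only cells in place of all wild-type cells, the heterozygous level of Cx3cr1 gave a log2 ratio of 0.55 (0.37 to 0.73) in place of -0.11, while Apoe gave 0.86, Ms4a7 1.63, Gdf15 3.07 and Cd209a -2.57, each in its former direction. Against the Y-only cells, homeostatic genes were past 1.5-fold higher in the heterozygous cells, among them P2ry12 at a log2 ratio of 1.61 (1.18 to 2.05), Gpr34 at 1.49, Sparc at 1.49, Olfml3 at 1.22, Siglech at 1.84 and Tmem119 at 0.96. The count of 1 of 13 homeostatic genes higher between the libraries thus holds for all selected cells and not for this subset of wild-type cells. Most heterozygous cells carried Xist only. The 16 Xist-only wild-type cells had Apoe at 13051 CPM and Ms4a7 at 381.5 CPM. Gdf15, Cd209a and Plac8 were at 27.25, 6.812 and 20.43 CPM there, from 4, 1 and 3 UMIs. The heterozygous levels given above were lower than these for Apoe and higher for Cd209a and Plac8, the opposite of the former directions. For Ms4a7 and Gdf15 they were higher, for Ms4a7 by less than 1.5-fold. The part of the marks was not tested.

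Summed over 7 homeostatic genes (P2ry12, Tmem119, Sall1, Siglech, Gpr34, Olfml3 and Sparc), the selected cells had a median of 475 CPM in the heterozygous library, from 0 to 6382 CPM, and 499 CPM in the wild-type library, from 0 to 11003 CPM. The sum reached 1000 CPM in 21 of 81 heterozygous cells, 25.9% (interval 16.8 to 36.9), and in 49 of 144 wild-type cells, 34.0% (26.3 to 42.4). By mark it reached 1000 CPM in 8 of 16 Xist-only, 7 of 67 Y-only, 12 of 14 both-mark and 22 of 47 unmarked wild-type cells. The both-mark cells had a median of 20988 UMIs, the Xist-only and Y-only cells 8011 and 12726. Whether the both-mark cells are pairs of cells was not tested. The 1000 CPM line was set after the data were seen, and 28 heterozygous and 39 wild-type cells lay between 500 and 2000 CPM.

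**Figure D4:**
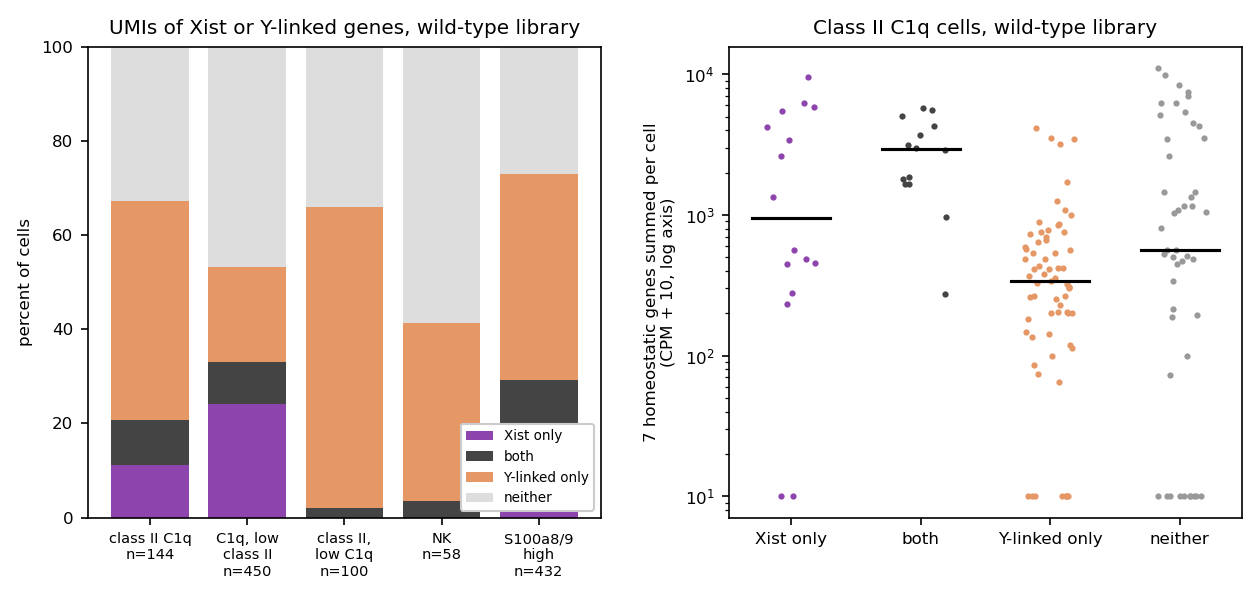
Left, percent of wild-type cells with UMIs of Xist only, of Y-linked genes only, of both or of neither in 5 populations; right, 7 homeostatic genes summed per selected wild-type cell (CPM + 10, log axis) by mark, with a bar at the median. Y-only cells are the largest group of selected cells, 67 of 144, and have the lowest median of the 4 groups.

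Clustered with all kept cells, 184 of the 225 selected cells (81.8%) fell in 1 of 15 clusters, 76 heterozygous and 108 wild-type. Its leading genes were H2-Eb1, H2-Aa, Cd74, H2-Ab1, Mgl2, Ccl17, Cd209a, Mmp12, Ttr and Retnla, and it held 332 cells, 111 of them class II cells low in C1q. Ttr, transthyretin, is an abundant product of choroid plexus epithelium; the list of choroid plexus and ependymal genes summed to 112 and 43.7 CPM in the selected cells, with 5 of 7 genes at 0 in the heterozygous library, and its part was not tested. A cluster led by Sparc, Ldhb and Ltc4s held 19 selected cells, 1 heterozygous and 18 wild-type. The cluster led by Gpnmb, Spp1 and Apoe held 237 cells and none of the selected ones.

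Clustered alone, without the genes of the selection and the sex-linked genes, the selected cells fell in 5 groups, whose leading genes are a description. Group 1 (64 cells, 28 heterozygous) was led by cell cycle genes, with Top2a, a topoisomerase of dividing cells, at 316 CPM against 10.4 to 60.6 CPM in the others. Of its wild-type cells 26 carried Y-linked UMIs only and 0 Xist only. Group 2 (60 cells, 29 heterozygous) was led by Ccl8, Ccl24, Ccn1 and Ccl7 and had Ms4a7 at 812 CPM, Pf4 at 1425 CPM, Cxcl2 at 10153 CPM and Apoe at 16796 CPM. Ccl8, Ccl24 and Ccn1 had large shares of their UMIs in 1 cell, as given above. Ccl7 had no UMI in 59 of 81 heterozygous and 105 of 144 wild-type selected cells. Group 3 (51 cells, 16 heterozygous) was led by Cd209a, Fn1, Ccl17 and Retnla and had Mgl2 at 750 CPM and Ccr2 at 491 CPM. Group 4 (28 cells, 4 heterozygous) was led by Plac8, Ifitm1 and Fabp4, with Plac8 at 1076 CPM and Ace, angiotensin-converting enzyme, at 161 CPM. Group 5 (22 cells, 4 heterozygous) was led by Sparc, Syngr1 and Retnla, with a median of 4809 CPM over the 7 homeostatic genes and 3524 UMIs per cell. Retnla, a leading gene of group 3 too, was at 355.5 CPM in group 3 and 549.5 CPM in group 5. These levels came from 263 and 51 UMIs. Retnla had no UMI in 76 of 81 heterozygous and 136 of 144 wild-type selected cells. The highest cell of each library held 78 and 48 UMIs, so the level of group 5 may rest on very few cells.

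Cd74 and H2-DMb1 were lower in groups 4 and 5 than in the other groups, and Ciita did not follow that order. Cd74 was at 26669 CPM in group 1, 32039 in group 2 and 22727 in group 3, and at 12125 and 14060 CPM in groups 4 and 5. H2-DMb1 was at 719, 720 and 733 CPM in the first 3 groups and at 353 and 323 CPM in the last 2. Ciita was at 63.2, 36.4 and 64.9 CPM in groups 1 to 3 and at 52.2 and 21.6 CPM in groups 4 and 5, where group 5 had 2 UMIs of it. Groups 1 to 3 lay in the largest joint cluster in 62 of 64, 60 of 60 and 51 of 51 cells, groups 4 and 5 in 6 of 28 and 5 of 22. Groups 4 and 5 held 8 of 81 heterozygous and 42 of 144 wild-type cells.

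**Figure D5:**
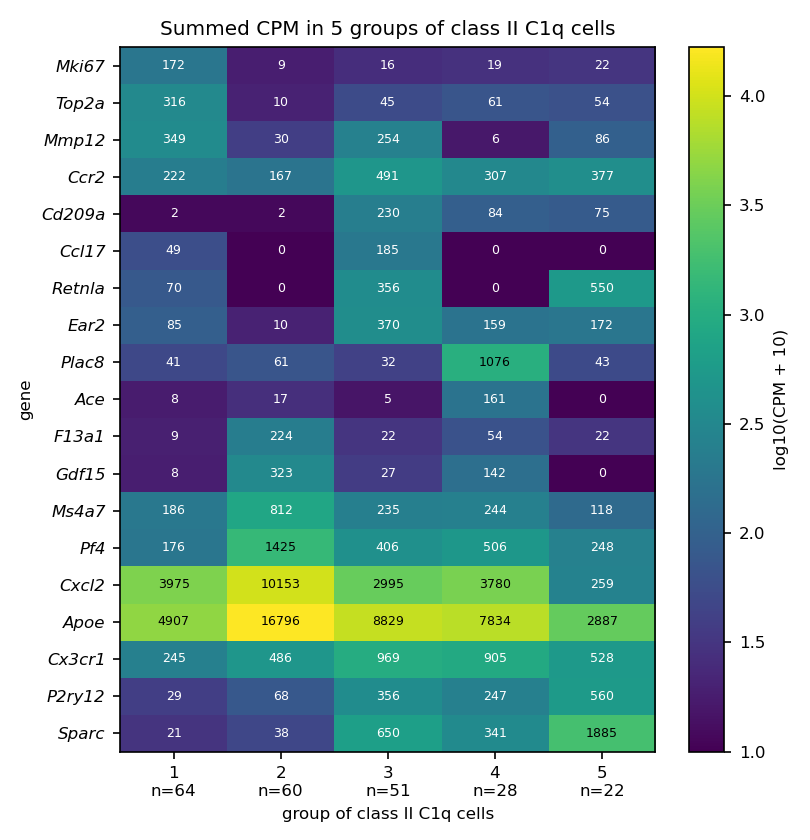
Summed CPM of 19 genes in the 5 groups of selected cells, both libraries together, printed in each square and coloured by log10(CPM + 10). Mki67 and Top2a are highest in group 1, Ms4a7, Pf4, Cxcl2 and Apoe in group 2, Cd209a and Ccl17 in group 3, Plac8 and Ace in group 4, and Sparc and P2ry12 in group 5.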

How the data were processed

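Single-cell libraries were made with the 10x Chromium 3' kit, version 3.1, per the labels' protocols. The authors deposited matrices of UMI counts, not normalized; Cell Ranger 4.0 and mm10 are named in the submitters' processing notes, while the matrix headers name version 5.0.0. The members, lists and thresholds were chosen with earlier results of these data known. CPM were computed from each cell's deposited counts, and UMIs were summed per library and population. Intervals were exact (Clopper-Pearson for shares, conditional binomial for ratios). Genes compared had at least 50 UMIs and a mean of 20 CPM; genes at 0 in a group were set to 3 counts for calls. Named genes were, per comparison, the 12 highest and 12 lowest past 1.5-fold outside the selection, ribosomal, mitochondrial, predicted and sex-linked genes, up to 4 per list, and the markers; others named were chosen after their values were seen. Clustering used scanpy 1.11.5 (2000 variable genes, 30 or 20 components, 15 neighbours, resolution 0.5). No doublets were removed. Trimmed mean scaling used edgeR 4.0.16; the ratio step was tested on simulated data. Alternatives covered cell filters, thresholds, shared barcodes, depth, scaling, weighting and UMI minimums.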

Additional observations from a re-analysis of the deposited data

Results flagged for a closer look

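Barcodes listed in both libraries were left out of every comparison. Of the shared barcodes that passed the cell filter, 30 of 255 in the heterozygous library (11.8%, interval 8.08 to 16.4) and 18 of 198 in the wild-type library (9.09%, 5.48 to 14.0) met the thresholds for class II C1q cells, and 14 met them in both. Among kept cells the shares were 6.56% and 8.22%, the latter inside the interval for shared barcodes; the differences were not tested.

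The genes Cbr2 and Fscn1 differed in direction between the libraries when class II C1q cells were set against a neighbouring population, and neither difference was tested. Cbr2, a carbonyl reductase of border macrophages, had a log2 ratio over C1q cells low in class II of 0.92 in the heterozygous and -1.93 in the wild-type library. Fscn1, an actin-bundling protein, had a log2 ratio over class II cells low in C1q of -1.57 in the heterozygous and 1.52 in the wild-type library. In the class II C1q cells themselves Fscn1 stood at 31.8 and 30.3 CPM, and in the class II cells low in C1q at 94.5 and 10.6 CPM.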

How the results depend on the processing

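No paired analysis was possible because each genotype had 1 library. The share of class II C1q cells stayed within its counting interval under 10 planned settings in the heterozygous library and under 9 in the wild-type library, where a class II threshold of 6000 CPM gave 6.85%. The Xist share of marked wild-type cells, 19.3%, was 39.0% at 2000 and 60.9% at 1000 UMIs per cell. Genes higher in the heterozygous library, 227, numbered 360 without the 10% of cells with most UMIs, 487 with equal weight per cell and 345 without cells with both Xist and Y-linked UMIs, and genes lower, 214, numbered 371 with equal weight; with a minimum of 200 UMIs there were 27 higher and 40 lower. Against C1q cells low in class II, 170 higher and 529 lower genes became 279 and 349 with trimmed mean scaling, and 92 and 330 with a minimum of 200 UMIs, which tests fewer genes. Against class II cells low in C1q, 334 and 258 became 109 and 67 with that minimum. Genes beyond both populations, 11 higher and 19 lower, became 18 and 8 with trimmed mean scaling, 19 higher with equal weight, 5 and 4 with a minimum of 200 UMIs, 22 and 36 among class II C1q cells of the largest cluster, and 21 and 30 among those with homeostatic genes under 1000 CPM. The cause of each change was not tested.

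Of 1259 recomputed heterozygous to wild-type ratios of named genes, 12 changed sign. Without the 10% of cells with most UMIs these were Kif15 (0.18), Pglyrp1 (0.15), Retnlg (0.88), Mki67 (0.08), Birc5 (1.24) and Tyms (0.00). With equal weight per cell they were Ccl5 (0.02) and Birc5 (0.52). Chil3 was at 0.30 with a class II threshold of 6000 CPM, and Retnlg at 0.11 with S100a8 and S100a9 under 5000 CPM. In the largest cluster alone Pglyrp1 was at 0.19 and Retnlg at 0.98. No named gene past 1.5-fold changed sign in the comparisons with C1q cells low in class II or class II cells low in C1q under the settings run. The settings without cells of both marks, of the largest cluster, of low homeostatic genes and without the highest cell were chosen after seeing the data. Depth limits what single cells show: 7 heterozygous and 11 wild-type class II C1q cells had under 2000 UMIs.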

Other observations

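Interferon, complement and phagocytic receptor genes were counted in the same comparisons, where 3.24% of all genes measured were higher and 10.1% lower than in C1q cells low in class II. Of the type I interferon list, 4 of 8 measured genes were higher in class II C1q cells than in C1q cells low in class II and 1 was lower. Ifi27l2a, an interferon-induced protein, was at 1076 and 859 CPM in the heterozygous and wild-type libraries against 454 and 531 CPM, and Isg15, a ubiquitin-like protein, at 90.2 and 86.3 CPM against 48.9 and 53.0 CPM. Of the interferon gamma list, 1 of 7 was higher and 1 lower, of complement genes outside the selection 2 of 9 were higher and 1 lower, and of the class I presentation genes 0 of 13 passed 1.5-fold. Of the phagocytic receptors, 1 of 12 was higher (Axl) and 5 were lower, among them Mertk at 96.2 and 68.4 CPM against 229 and 195 CPM. Against class II cells low in C1q, where 7.74% of all genes were higher, the same list had 7 of 12 higher and none lower. Counts of 1 gene in a list of 7 or 12 cannot be told from these shares of all genes.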
